A study of Mus musculus with 24 samples.

Results

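The late change in C2C12 cells silenced for Tead1 and Tead4 was measured between day 3 and day 6 of differentiation. It was read from 4 of the 24 RNA-seq libraries of the series, which are the 2 siTead1/4 libraries of day 6 and the 2 siTead1/4 libraries of day 3. All genes of the table were considered, and 15303 of 28109 had enough reads to be tested. C2C12 is an established myoblast line from C3H mice. The cells were transfected with siRNA pools against Tead1 and Tead4 (siTead1/4) or with a control siRNA against luciferase (siControl), kept for 24 hours, which is day 0, and then moved to low serum. Every C2C12 group therefore went through transfection and the same differentiation medium, and no allele or drug was added. The siControl cells of days 0, 3 and 6 and the siTead1/4 primary myoblasts (PMs, from C57BL/6 mice) of days 3 and 6 served for comparison. Each group had 2 libraries. The study's methods speak of biological replicates, but neither they nor the labels say whether they came from separate cultures, so p-values measure only the spread between these libraries, which may be technical.

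Tead factors are DNA-binding proteins that recognise the MCAT element of muscle and growth genes and act with cofactors of the Yap, Taz and Vgll families. Myoblasts that leave the cell cycle in low serum express myogenin, fuse, and build sarcomeres. The myosin heavy chain genes come on in sequence, with the embryonic form Myh3 and the perinatal form Myh8 ahead of the adult fast forms Myh1, Myh2 and Myh4. The comparison asks which genes differed between the early and the late stage of silenced cells and where they stood relative to control cells.

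The 4 libraries held 33189896 to 44684295 reads on genes. The silenced libraries were less alike than the control libraries. Over genes, replicates differed on the log2 scale with an SD of 0.731 at day 3 and 0.621 at day 6 in siTead1/4 cells, against 0.411 and 0.555 in siControl cells. The skeletal muscle markers Myod1, Myog, Myh3, Acta1 and Ckm were all expressed, from 133 CPM (read counts scaled to a common library size) for Ckm in 1 day 3 library to 7204 CPM for Acta1 in 1 day 6 library. Markers of other cells were present at varying levels. The endothelial list had 4 of 10 markers above the filter with a summed level of 3.91 to 4.58 CPM, and the macrophage list 4 of 12 with 5.19 to 7.31 CPM. The fibroblast list had 10 of 12, with 173 and 87.8 CPM at day 3 and 178 and 101 CPM at day 6. The osteoblast list had 6 of 10, with 1231 and 1649 CPM at day 3 and 1618 and 2896 CPM at day 6, of which osteopontin (Spp1) made up 1173 and 1602 CPM and then 1579 and 2853 CPM. The Schwann and neuron list had 8 of 13, with 162 and 136 CPM at day 3 and 110 and 97.4 CPM at day 6. No read fell on the list members Sox10, Emcn, Tcf21, C1qa, Emr1 and Dlx5 in any of the 4 libraries. They are named because they had no read, and other members of the same lists were expressed. The Schwann and neuron sum was lower in both day 6 libraries. The part of such cells in the results was not tested. In bulk RNA, fewer cells of a type and less RNA per cell cannot be told apart.

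At day 6 Tead4 was below control in both silenced libraries, and Tead1 overlapped with control. Tead1 stood at 68.1 and 50.8 CPM in the 2 day 3 libraries of silenced cells and at 72.5 and 79.4 CPM at day 6, against 97.5 and 155 CPM in siControl cells of day 3 and 78.1 and 139 CPM of day 6. Tead4 stood at 26.6 and 51.2 CPM at day 3 and at 40.7 and 58.9 CPM at day 6, against 113 and 151 CPM and then 89.0 and 153 CPM in siControl cells. Both day 6 values of Tead1 lay above both day 3 values, whereas those of Tead4 overlapped. Neither difference was called (Tead1 log2 fold change 0.35 with SE 0.626, Tead4 0.36 with SE 0.340, adjusted p = 1 and 0.94 by edgeR). The SE draws on the replicate spread in all C2C12 groups. The silenced libraries of day 0 held 30.05 and 4.776 CPM of Tead1, far apart. The SE of Tead1 is therefore not a measure of the spread at days 3 and 6 alone. Without day 3 replicate 1 the log2 fold change of Tead4 was −0.067. The summed level of Tead1 and Tead4 was 36.7% and 39.5% of the siControl mean at day 3 and 49.3% and 60.2% at day 6. At day 0 it had been 29.4% and 7.92%. Tead2 was at 55.3 and 49.9 CPM and then 48.2 and 59.0 CPM, and Tead3 at 72.0 and 48.4 CPM and then 56.1 and 69.7 CPM. The cofactors Yap1 (154 and 126 CPM, then 134 and 132 CPM) and Wwtr1, which encodes Taz (397 and 402 CPM, then 366 and 410 CPM), overlapped between the days. Of the 9 tested members of the Tead, Yap and Vgll list, 5 were higher and 4 lower at day 6, and none had an unadjusted p under 0.05.

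**Figure D1:**
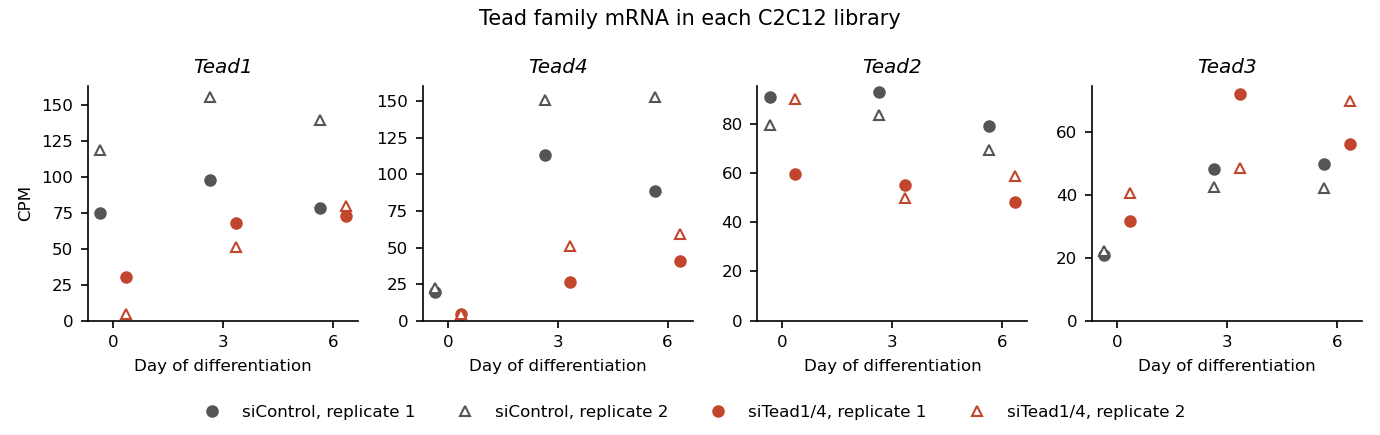
CPM (vertical axis, linear) of the 4 Tead genes in each C2C12 library by day of differentiation (horizontal axis), with siControl in grey and siTead1/4 in red, circles for replicate 1 and open triangles for replicate 2. In silenced cells Tead4 reached 40.7 and 58.9 CPM at day 6, below the 89.0 and 153 CPM of control cells.

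Over all genes, no gene was called between day 6 and day 3 by edgeR (0% of 15303 genes, where a call needs an adjusted p under 0.05 together with a log2 fold change beyond 1 in either direction). The smallest adjusted p was 0.052, and 1183 genes had an unadjusted p under 0.05. These were higher at day 6 for 658 genes (4.30%) and lower for 525 (3.43%). Both day 6 libraries lay above both day 3 libraries for 2606 genes (17.0%) and below them for 2284 (14.9%). The median log2 fold change was 0.01. The count of calls differed between tools and filters. DESeq2 called 52 genes higher (0.361% of the 14411 genes with an adjusted p) and 42 lower (0.291%). edgeR with no filter on low counts called 389 higher (1.56% of 25008 genes) and 241 lower (0.964%), in a fit whose prior degrees of freedom were infinite, so that a gene's own replicate spread carried no weight. In the filtered fit they were 4.25. On simulated counts for the 15303 genes, edgeR recovered 71 of 100 genes changed by 2 on the log2 scale and 52 of 98 changed by 1.5, with 7 false calls. DESeq2 recovered 80 and 70 of 100, with 41 false calls. Apart from the changed genes, the simulated counts had 1 mean per gene in all groups. They held no shift shared by many genes of a library, so these rates may not hold for the real libraries. In the following, higher and lower describe values, and a call is named with its tool.

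The gene with the smallest p was Itgb1bp2, which encodes melusin, a muscle protein that binds the integrin beta 1 tail. It lies on chromosome X from 98644427 to 98648880 in the mm9 build. It measured 38.5 and 37.5 CPM at day 3 and 106 and 134 CPM at day 6. The groups were wide apart and the replicates close, with a log2 fold change of 1.66 (SE 0.184, adjusted p = 0.052 by edgeR and 4.43e-10 by DESeq2). In siControl cells it was already at 180 and 177 CPM by day 3.

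Itgb1bp3, a nicotinamide riboside kinase of muscle (chromosome 10, 80660915 to 80664782 in mm9), measured 2.64 and 3.29 CPM at day 3 and 11.1 and 14.4 CPM at day 6. Its log2 fold change was 2.11 (SE 0.279, adjusted p = 0.13 by edgeR and 4.25e-08 by DESeq2). The day 6 values met those of siControl cells at day 3, 13.2 and 11.9 CPM. Camk2b, a calcium/calmodulin-dependent kinase (chromosome 11, 5869647 to 5966365 in mm9), went from 2.70 and 4.67 CPM to 14.9 and 22.1 CPM, a log2 fold change of 2.32 (SE 0.332, adjusted p = 0.165 by edgeR and 4.71e-07 by DESeq2). In siControl cells Camk2b was at 8.88 and 10.8 CPM at day 3 and 21.6 and 26.0 CPM at day 6, so the silenced cells of day 6 were above control cells of day 3 and overlapped with those of day 6. The genes for Itgb1bp2, Itgb1bp3 and Camk2b had the smallest p-values of all tested genes.

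The other 12 of the 15 leading genes higher at day 6 had adjusted p-values of 0.482 by edgeR, and DESeq2 called each of them. Several belong to the contractile apparatus. Myo18b, an unconventional myosin of the sarcomere, measured 10.0 and 13.3 CPM at day 3 and 28.5 and 63.0 CPM at day 6. Tcap (telethonin), which caps titin at the Z-disc, measured 5.09 and 6.54 CPM and then 16.6 and 74.3 CPM, with a log2 fold change of 2.97 (SE 0.625). Ankrd23, an ankyrin repeat protein of the I-band, measured 49.5 and 72.4 CPM and then 120 and 255 CPM. In each of these 3 genes the second day 6 library was more than 2-fold above the first. Trdn (triadin), a protein of the calcium release complex, measured 19.8 and 41.0 CPM and then 64.9 and 102 CPM. The rest included Myh1, described below, Zmynd17 (log2 fold change 1.92), Fgf13 (1.32), the ADP-ribosyltransferase Art1 (1.29), Kank1 (1.34), Ppapdc3 (1.53) and the chemokine Ccl11 (2.67). Ccl11 was at 0.296 and 0.253 CPM at day 3 and 1.98 and 1.55 CPM at day 6, still under the 5.44 and 6.04 CPM of siControl cells at day 3.

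**Figure D2:**
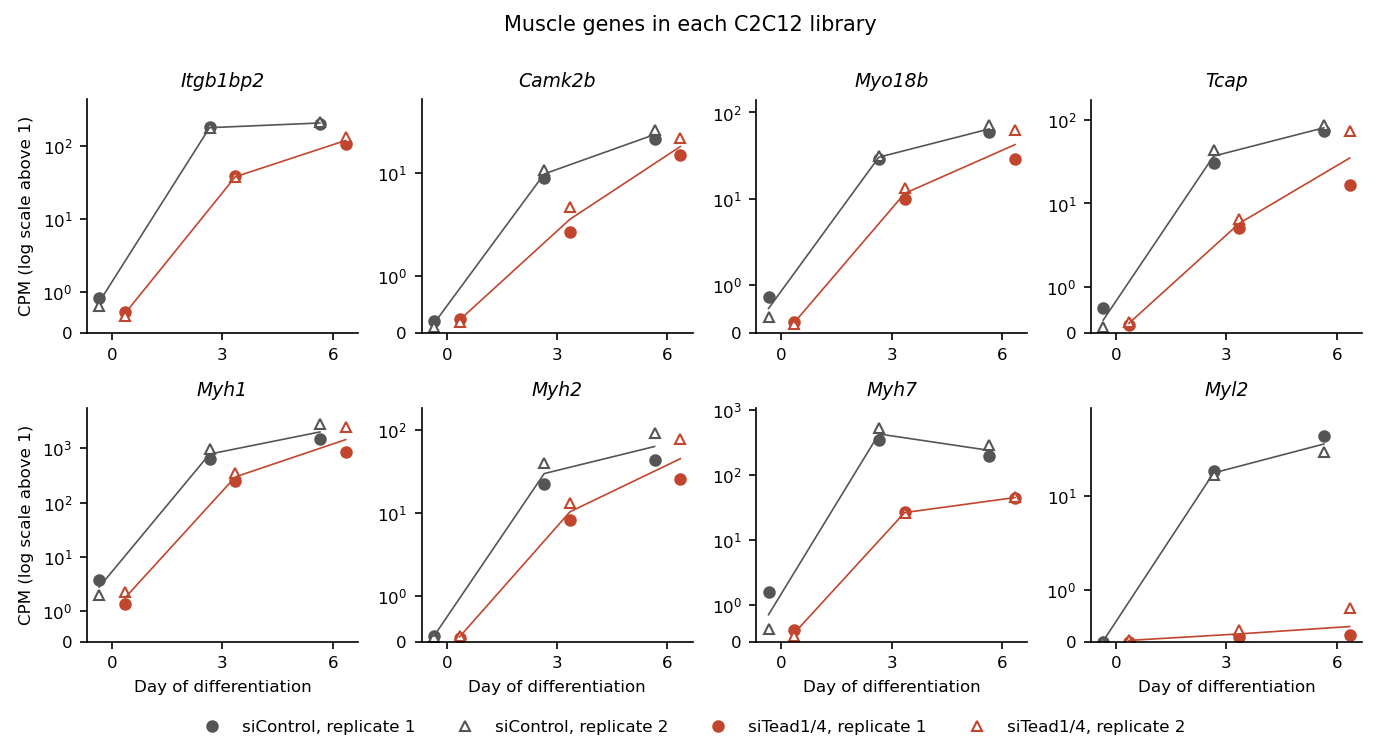
CPM (vertical axis, linear from 0 to 1 and logarithmic above) of 8 muscle genes in each C2C12 library by day of differentiation (horizontal axis). Grey is siControl, red is siTead1/4, circles are replicate 1, open triangles replicate 2, and lines join the geometric means. Itgb1bp2 and Camk2b were higher in both silenced day 6 libraries, and the replicates of Itgb1bp2 were close. Myh7 (44.1 and 45.7 CPM) and Myl2 (0.118 and 0.640 CPM) stayed far below control at day 6.

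Sequences just upstream of the transcription start are shown for 3 of these genes, because most contractile genes were higher at day 6 and the silenced factors are known to recognise the MCAT element. The sequences are from RefSeq on the GRCm38.p6 build, cover 250 bases up to the start, and carry the letters CATTCC of the MCAT core, on either strand, in capitals (GGAATG where it lies on the other strand). The study gives the MCAT element as this core followed by A or T. The match in Ankrd23 is followed by C. All 3 genes were higher in both day 6 libraries, and Myh7 stayed far below control.
Myh1 (chr11:67199852-67200101, plus strand): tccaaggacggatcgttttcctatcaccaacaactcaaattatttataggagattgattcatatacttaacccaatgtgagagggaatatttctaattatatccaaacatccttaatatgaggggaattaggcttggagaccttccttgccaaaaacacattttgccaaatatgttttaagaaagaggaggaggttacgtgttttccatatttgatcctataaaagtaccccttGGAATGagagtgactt
Ankrd23 (chr1:36535740-36535989, minus strand): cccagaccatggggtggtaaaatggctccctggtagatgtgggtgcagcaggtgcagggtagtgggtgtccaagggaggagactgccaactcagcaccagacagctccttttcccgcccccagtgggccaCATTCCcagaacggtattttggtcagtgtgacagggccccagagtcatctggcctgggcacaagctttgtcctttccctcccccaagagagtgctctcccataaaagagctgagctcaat
Myh7 (chr14:54994627-54994876, minus strand): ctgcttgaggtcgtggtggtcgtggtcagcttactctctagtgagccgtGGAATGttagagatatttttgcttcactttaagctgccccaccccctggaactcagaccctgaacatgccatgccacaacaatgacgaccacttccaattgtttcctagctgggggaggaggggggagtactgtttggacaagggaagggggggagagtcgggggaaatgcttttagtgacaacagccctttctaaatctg
A match to CATTCC on either strand was found for 19 of the 58 genes of the thick filament, thin filament and Z-disc lists that have a promoter in the table (32.8%), against 3880 of all 27025 genes (14.4%), with several starts of a gene counted once. Of all 32851 promoters of this length, 12.6% hold it. These shares count the core alone, whatever base follows it. A match of letters does not show binding.

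Members of the thick filament list were higher at day 6 in 24 of 24 cases, with a median log2 fold change of 0.87. The unadjusted p was under 0.05 in 8 and the day 6 libraries lay above both day 3 libraries in 18. The shares over all tested genes, counted in the same direction, were 4.30% and 17.0%. edgeR called none of them and DESeq2 called 2. The list holds the myosins with their light chains and binding proteins. Myh1 (adult fast IIx) measured 246 and 357 CPM at day 3 and 845 and 2447 CPM at day 6, with a log2 fold change of 2.45 (SE 0.544, adjusted p = 0.482 by edgeR and 0.00249 by DESeq2). In siControl cells it was at 628 and 966 CPM at day 3 and at 1449 and 2731 CPM at day 6. Myh2 (adult fast IIa) followed the same course at a lower level, 8.08 and 13.1 CPM and then 25.8 and 78.6 CPM (log2 fold change 2.30, SE 0.539, DESeq2 adjusted p = 0.0101). Myh4 (adult fast IIb) measured 177 and 278 CPM and then 406 and 1141 CPM, but its spread was wide (log2 fold change 1.76, SE 0.954). Its values overlapped on both days with those of siControl cells, which held Myh4 at 56.6 and 226 CPM at day 3 and 417 and 593 CPM at day 6.

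The embryonic form Myh3 measured 1343 and 1118 CPM at day 3 and 1488 and 2714 CPM at day 6 (log2 fold change 0.77, SE 0.430). That was well under the 5302 and 8306 CPM of siControl cells at day 3. The perinatal form Myh8 measured 10.2 and 22.8 CPM and then 23.4 and 134 CPM, against 293 and 686 CPM in siControl cells at day 3. The slow and cardiac form Myh7 measured 26.6 and 26.1 CPM and then 44.1 and 45.7 CPM (log2 fold change 0.77, SE 0.455). The siControl cells held 339 and 527 CPM of it at day 3. These myosins share long stretches of sequence, and reads that fit several of them may have been split or dropped in the authors' counting.

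Per kilobase of transcript, the make-up of the sarcomeric myosin message differed between the days. The adult fast forms Myh1, Myh2 and Myh4 made up 23.5% and 35.4% of the summed CPM per kilobase of 9 myosin genes at day 3 and 44.6% and 55.6% at day 6. In siControl cells the same share was 10.3% and 11.3% at day 3, and by day 6 it was 27.8% and 29.2%. The embryonic and perinatal share was 74.6% and 62.7% at day 3 and 53.4% and 43.4% at day 6 in silenced cells. The day 6 shares did not overlap with the day 3 shares under either siRNA, and the silenced cells had the larger adult fast share at both days. The total over the 9 genes was 295 and 295 CPM per kilobase at day 3 and 458 and 1056 at day 6, against 1081 and 1738 in siControl cells at day 3. The slow and cardiac share (Myh6, Myh7 and Myh7b) was 1.86% and 1.84% at day 3 and 1.94% and 1.05% at day 6, against 6.43% and 6.01% in siControl cells at day 3. With 2 libraries a group no exact test of these shares can reach a p under 0.05, and none was made.

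**Figure D3:**
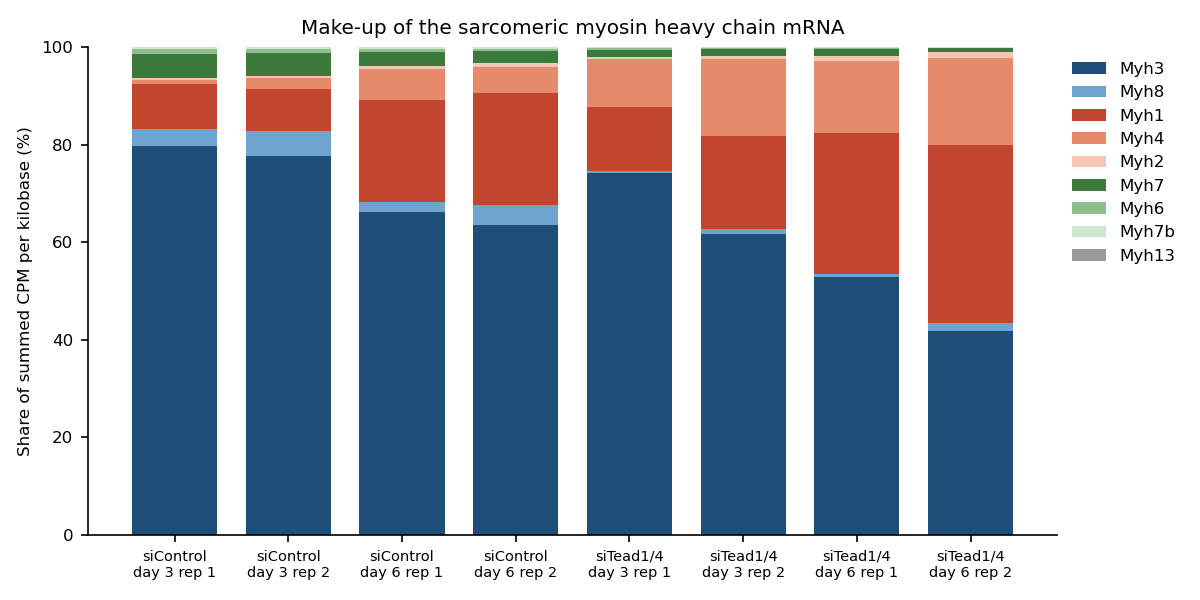
Stacked bars of the share (percent, vertical axis) of each sarcomeric myosin heavy chain gene in the summed CPM per kilobase, 1 bar for each C2C12 library of days 3 and 6 (horizontal axis). Reds are adult fast forms, blues embryonic and perinatal forms, greens slow and cardiac forms. The reds make up 23.5% and 35.4% at day 3 and 44.6% and 55.6% at day 6 in silenced cells.

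The thin filament list, which holds actins, tropomyosins and troponins, was higher at day 6 for 17 of 18 tested members (median log2 fold change 0.70). Of these, 6 had an unadjusted p under 0.05 and 13 did not overlap, against 4.30% and 17.0% of all tested genes. Tmod1, which caps the pointed end of actin, measured 21.96 and 23.7 CPM at day 3 and 46.7 and 65.3 CPM at day 6 (log2 fold change 1.30, SE 0.317, DESeq2 adjusted p = 0.0278). Lmod2, an actin nucleator, measured 43.2 and 54.1 CPM and then 98.8 and 160 CPM (1.41, SE 0.356, DESeq2 adjusted p = 0.0278). The cardiac actin Actc1 measured 557 and 595 CPM and then 857 and 1461 CPM, and the skeletal actin Acta1 2445 and 3106 CPM and then 3461 and 7204 CPM. Neither actin was called by either tool. The cardiac troponin Tnni3 was low, 0.755 and 0.437 CPM and then 2.43 and 1.46 CPM. The member that was not higher was Tmod4, at 0.970 and 0.576 CPM and then 0.533 and 0.823 CPM.

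In the Z-disc and costamere list, 29 of 29 members were higher at day 6 (median 0.87). Of these, 14 had an unadjusted p under 0.05 and 22 did not overlap, against 4.30% and 17.0% of all tested genes. DESeq2 called Tcap and Ankrd23. Myot (myotilin) measured 0.943 and 1.47 CPM at day 3 and 5.36 and 12.4 CPM at day 6 (log2 fold change 2.87, SE 0.813). Xirp2, an actin-binding repeat protein, measured 5.77 and 4.67 CPM and then 10.2 and 22.7 CPM, above the 5.08 and 6.31 CPM of siControl cells at day 3. Ankrd2, a stretch-responsive Z-disc protein, measured 4.12 and 8.61 CPM and then 8.55 and 15.9 CPM, with overlap and far under the 86.6 and 62.5 CPM of control.

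Of the excitation-contraction coupling genes, 21 of 24 were higher (median 0.49). The unadjusted p was under 0.05 in 6 and 10 did not overlap, against 4.30% and 17.0% of all tested genes. DESeq2 called Trdn and the inward rectifier channel Kcnj2, which measured 12.0 and 8.22 CPM at day 3 and 23.9 and 25.7 CPM at day 6 (log2 fold change 1.29, SE 0.321). Cav3, the muscle caveolin, measured 22.1 and 46.9 CPM and then 55.8 and 93.4 CPM (1.11, SE 0.356). Casq1, the calcium store protein calsequestrin, measured 30.6 and 23.3 CPM and then 49.7 and 64.4 CPM (1.08, SE 0.419). The 3 members that were not higher were Asph, Cacng1 and Atp2a2, whose log2 fold changes lay between −0.17 and −0.05.

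Muscle energy metabolism genes were higher for 22 of 24 members (median 0.66). Of these, 5 had an unadjusted p under 0.05, against 4.30% of all tested genes. The muscle phosphoglycerate mutase Pgam2 measured 18.97 and 31.4 CPM at day 3 and 39.2 and 69.5 CPM at day 6 (log2 fold change 1.11, SE 0.291). The AMP deaminase Ampd1 was called by DESeq2 at a low level, 0.755 and 0.806 CPM and then 1.75 and 3.54 CPM. Creatine kinase Ckm measured 133 and 247 CPM and then 211 and 501 CPM, which overlap. The respiratory chain list differed by little but evenly. Of its 37 members 36 were higher, with a median of 0.27. In 31 members both day 6 libraries lay above both day 3 libraries (17.0% over all tested genes). Only 1 had an unadjusted p under 0.05. In siControl cells the same list was higher for 36 of 37 genes with a median of 0.17.

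The neuromuscular junction list was higher for 11 of 14 members (median 0.23). Chrne, the adult subunit of the acetylcholine receptor, was at 0.162 and 0.368 CPM at day 3 and 0.917 and 3.25 CPM at day 6, and DESeq2 called it (log2 fold change 2.95, SE 0.669, adjusted p = 0.0101). The fetal subunit Chrng was at 253 and 499 CPM and then 290 and 441 CPM, with overlap.

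The myogenic factor list was higher for 18 of 25 members with a median of 0.19. Myog measured 500 and 871 CPM at day 3 and 704 and 791 CPM at day 6, and Myod1 157 and 147 CPM and then 194 and 210 CPM (log2 fold change 0.41, SE 0.229). Mef2c, the Mef2 factor that accumulates in myotubes, measured 129 and 186 CPM and then 264 and 476 CPM (1.23, SE 0.366, unadjusted p = 0.00686 and adjusted p = 0.494 by edgeR). Myf6, the myogenic factor of mature fibres, measured 0.566 and 1.01 CPM and then 1.83 and 4.14 CPM (1.91, SE 0.647). Myf5, a factor of undifferentiated myoblasts, was high in 1 library, 16.1 and 51.3 CPM at day 3 and 16.2 and 10.1 CPM at day 6.

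Each muscle list was also higher at day 6 within replicate 1 and within replicate 2 taken alone. The labels do not pair libraries by number, so these are not 2 independent comparisons. The summed CPM of day 6 replicate 1 was below day 3 replicate 2 for Z-disc (6353 and 6450), coupling (6771 and 7901) and energy metabolism (3770 and 3957). It was above for thick filament (11180 and 9797) and thin filament (13860 and 11920). The medians within replicate 1 and within replicate 2 were 0.61 and 1.13 for the thick filament, 0.74 and 0.79 for the thin filament, 0.59 and 0.89 for the Z-disc, 0.56 and 0.50 for excitation-contraction coupling and 0.48 and 0.61 for energy metabolism. Without day 6 replicate 2 the fitted medians were 0.38, 0.33, 0.40, 0.20 and 0.26 in the same order. The all-gene medians were 0.01 within replicate 1 and 0.04 within replicate 2. In siControl cells the medians between the same days were 0.17, 0.29, 0.20, 0.19 and 0.37. The fitted medians without day 6 replicate 2 are close to these for thin filament and coupling and below for energy metabolism, and the difference between the arms was not tested by list. The difference between siTead1/4 and siControl in the late change was tested gene by gene below.

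**Figure D4:**
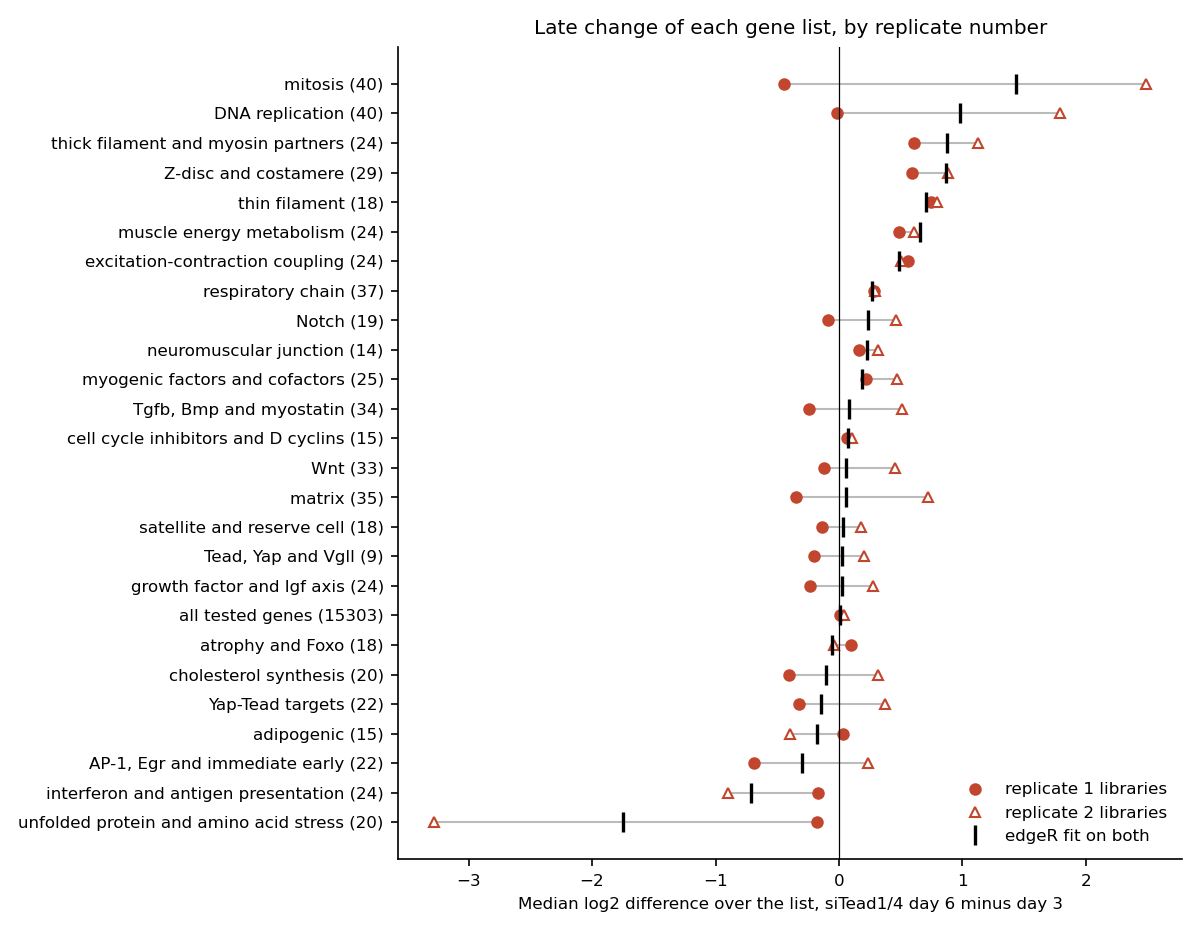
Median log2 difference over each gene list between day 6 and day 3 in silenced C2C12 cells (horizontal axis), with lists on the vertical axis and the number of tested genes in brackets. Filled circles use the replicate 1 libraries, open triangles the replicate 2 libraries and black bars the edgeR fit on both. The muscle lists lie to the right for both replicate numbers, which the labels do not pair. Mitosis (−0.45 and 2.49) and the unfolded protein list (−0.17 and −3.28) rest on 1 replicate.

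Proliferation genes were high in a single day 6 library. The mitosis list was higher in the fit for 40 of 40 genes with a median of 1.43. The unadjusted p by edgeR was under 0.05 in 10, against 4.30% of all tested genes. Only 1 of the 40 had both day 6 libraries above both day 3 libraries, against 17.0% of all tested genes. Mki67, the marker of cycling cells, measured 44.3 and 17.6 CPM at day 3 and 24.9 and 159 CPM at day 6. Nuf2 and Ndc80 of the kinetochore measured 8.33 and 4.88 CPM and 7.92 and 4.81 CPM at day 3, then 6.81 and 42.1 CPM and 5.92 and 37.02 CPM at day 6. For these 3 genes replicate 1 of day 6 lay within the range of day 3, and replicate 2 lay above the other 3 libraries. Over the list, day 6 replicate 2 was 5.63-fold above replicate 1 in the median (range 1.52 to 7.25). The siControl libraries of day 6 had the same tilt, with replicate 2 at 3.90-fold of replicate 1 in the median. Without siTead1/4 day 6 replicate 2 the median of the mitosis list was −0.33, and Mki67 and Ndc80 changed sign.

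DNA replication genes had a median of 0.98 and were higher for 39 of 40. The unadjusted p was under 0.05 in 19 and 15 did not overlap, against 4.30% and 17.0% of all tested genes. The helicase subunit Mcm5 measured 12.4 and 3.80 CPM at day 3 and 12.1 and 57.1 CPM at day 6. The replication factor Mcm10 measured 1.70 and 1.11 CPM and then 1.92 and 9.58 CPM, and thymidine kinase Tk1 9.08 and 3.36 CPM and then 7.55 and 41.4 CPM. Day 3 replicate 2 was low and day 6 replicate 2 was high. The median within replicate 1 was −0.02 and within replicate 2 it was 1.79. It was 0.24 without day 6 replicate 2. The cyclin-dependent kinase inhibitor Cdkn1a measured 751 and 1238 CPM and then 1127 and 1535 CPM, and the cyclin Ccnd1 49.4 and 30.1 CPM and then 23.5 and 30.9 CPM, both with overlap. What set these libraries apart was not tested.

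Stress genes were high in a single day 3 library. All 20 members of the unfolded protein and amino acid stress list were lower at day 6, with a median log2 fold change of −1.75. Of these, 16 had an unadjusted p under 0.05, against 3.43% of all tested genes. The summed level of the list was 4449 and 30000 CPM at day 3 and 3775 and 2153 CPM at day 6. The first day 3 library was near the siControl cells of day 3 (3947 and 3595 CPM), and the second was above them. Hsp90b1, a chaperone of the endoplasmic reticulum, measured 1007 and 7482 CPM at day 3 and 707 and 502 CPM at day 6 (log2 fold change −2.81, SE 0.683, adjusted p = 0.482 by edgeR and 0.00297 by DESeq2). Pdia4, a disulfide isomerase, measured 221 and 2286 CPM and then 155 and 111 CPM. Sdf2l1, a chaperone partner, measured 29.7 and 435 CPM and then 18.3 and 11.2 CPM, and the stress pseudokinase Trib3 21.5 and 206 CPM and then 11.8 and 2.26 CPM.

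Replicate 2 of day 3 was above replicate 1 for all 20 genes, by 3.65-fold in the median (range 1.68 to 14.7). Without it the list's median was −0.59, and the median within replicate 1 was −0.17. Of the 42 genes that DESeq2 called lower at day 6, 35 were more than 2-fold higher in day 3 replicate 2 than in replicate 1, among them Hsp90b1, Pdia4, Sdf2l1 and the oxidoreductase Ero1l (92.8 and 271 CPM, then 57.5 and 48.1 CPM). Of the 52 called higher, 18 were more than 2-fold higher in day 6 replicate 2 than in replicate 1. Over all 15303 tested genes, replicate 2 was more than 2-fold above replicate 1 for 464 at day 3 and 443 at day 6. The reverse held for 623 genes at day 3 and 277 at day 6.

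The promoters of Hsp90b1 and Hspa5 are shown because both chaperone genes were high in that library and hold the element. Hspa5 was chosen after its values were seen. It encodes the chaperone BiP and measured 1406 and 13650 CPM at day 3 and 1151 and 561 CPM at day 6. The capitals mark the endoplasmic reticulum stress response element, which is CCAAT and CCACG with 9 bases of any kind between them, on either strand, in the 250 bases up to the start (RefSeq, GRCm38.p6).
Hspa5 (chr2:34771840-34772089, plus strand): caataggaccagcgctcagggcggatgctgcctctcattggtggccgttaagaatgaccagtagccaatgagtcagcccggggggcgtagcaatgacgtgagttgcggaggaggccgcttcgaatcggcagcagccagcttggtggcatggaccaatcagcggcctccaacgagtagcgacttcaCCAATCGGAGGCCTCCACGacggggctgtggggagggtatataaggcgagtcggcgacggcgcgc
Hsp90b1 (chr10:86705445-86705694, minus strand): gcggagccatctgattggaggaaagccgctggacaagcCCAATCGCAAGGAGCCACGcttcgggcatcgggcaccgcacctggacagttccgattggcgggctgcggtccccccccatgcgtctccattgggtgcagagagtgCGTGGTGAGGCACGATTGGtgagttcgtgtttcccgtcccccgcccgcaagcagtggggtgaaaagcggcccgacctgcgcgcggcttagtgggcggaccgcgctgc
This element was found for 3 of the 20 genes of the stress list (15%), against 35 of all 27025 genes (0.13%). The share of promoters of this length that hold it is 0.113%. Hspa5 has 1 match and Hsp90b1 has 2.

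**Figure D5:**
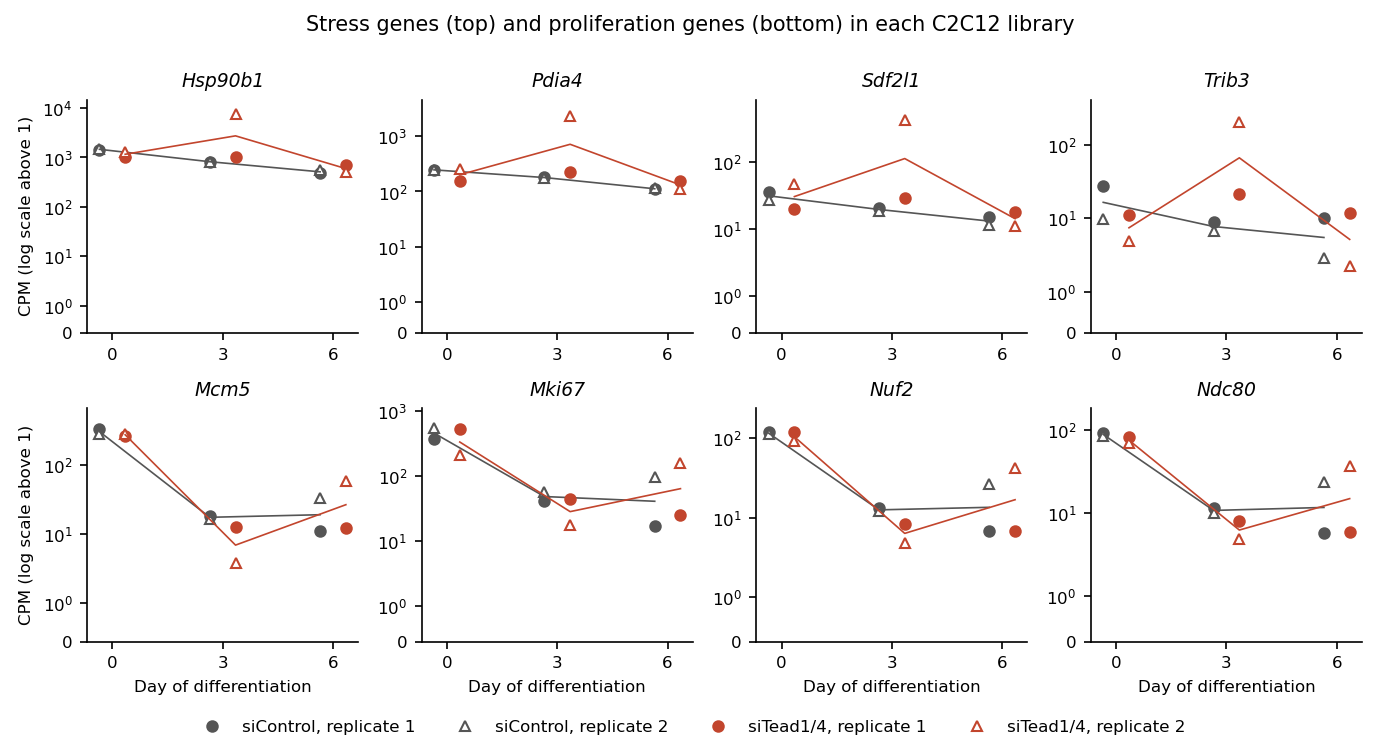
CPM (vertical axis, linear from 0 to 1 and logarithmic above) of 4 stress genes and 4 proliferation genes in each C2C12 library by day of differentiation (horizontal axis), with grey for siControl, red for siTead1/4, circles for replicate 1, open triangles for replicate 2, and lines through the geometric means. Hsp90b1 reached 7482 CPM in day 3 replicate 2 of silenced cells and 1007 CPM in replicate 1, and Mki67 reached 159 CPM in day 6 replicate 2 and 24.9 CPM in replicate 1.

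Interferon-response genes were lower at day 6 for 22 of 24 members (median −0.72). Of these, 7 had an unadjusted p under 0.05 and 12 did not overlap, against 3.43% and 14.9% of all tested genes. Of the list's 19 members over 1 CPM, 12 were higher in day 3 replicate 2 than in replicate 1. The median over the 19 was 1.3-fold (range 0.219 to 5.55). Several low-level members were highest in that library. Ifit1 measured 0.593 and 3.29 CPM at day 3 and 0.148 and 0.0457 CPM at day 6, Oasl2 1.46 and 6.22 CPM and then 0.888 and 1.21 CPM, and Isg15 1.29 and 6.79 CPM and then 1.42 and 0.846 CPM. Without that library the list's median was −0.34. The antigen presentation gene B2m was at 390 and 332 CPM and then 315 and 271 CPM.

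F3 was higher in day 3 replicate 1, and the next 5 genes were highest in replicate 2 of day 3. The leading 15 included F3, the tissue factor of coagulation and a known Yap target, which measured 54.1 and 40.6 CPM at day 3 and 24.97 and 13.8 CPM at day 6 (log2 fold change −1.29, SE 0.302, DESeq2 adjusted p = 0.0166). Tes, a focal adhesion protein, measured 146 and 205 CPM and then 95.7 and 66.8 CPM (−1.11, SE 0.233). Slc25a37, the mitochondrial iron importer mitoferrin, measured 112 and 181 CPM and then 70.8 and 70.3 CPM (−1.05, SE 0.216). Dusp4, a MAP kinase phosphatase, measured 72.6 and 122 CPM and then 32.9 and 47.0 CPM (−1.28, SE 0.284). Vegfa, the endothelial growth factor, measured 242 and 317 CPM and then 147 and 120 CPM (−1.06, SE 0.250), and the metalloproteinase Mmp28 12.4 and 18.99 CPM and then 6.51 and 6.88 CPM (−1.23, SE 0.265). DESeq2 called each of these, and edgeR called none (adjusted p = 0.482). Without day 3 replicate 2 the log2 fold changes were −1.48 for F3, −0.85 for Tes, −0.67 for Slc25a37, −0.86 for Dusp4, −0.86 for Vegfa and −0.89 for Mmp28. The siControl cells of day 3 held 17.7 and 17.2 CPM for F3, 82.9 and 73.4 CPM for Tes and 79.1 and 75.3 CPM for Slc25a37. The others of the 15 were Ifit1, Ero1l, Sdf2l1, Hsp90b1 and Pdia4, given above, and Cdr2l (log2 fold change −1.40), Hmga2 (−1.36), Elmo1 (−3.26) and Bend6 (−1.13), each highest in day 3 replicate 2. Without it these were −0.67, −0.76, −1.94 and −0.61.

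Among genes of growth signalling, Myc measured 81.2 and 92.4 CPM at day 3 and 31.1 and 26.7 CPM at day 6. The replicates were close at both days. Its log2 fold change was −1.59 (SE 0.458, unadjusted p = 0.00591 by edgeR, adjusted p = 0.0662 by DESeq2), and neither tool called it. In siControl cells Myc measured 83.6 and 22.2 CPM at day 3 and 28.8 and 25.2 CPM at day 6. The zinc finger factor Klf4 measured 91.0 and 190 CPM and then 56.3 and 39.8 CPM. The immediate early list was lower for 16 of 22 members (median −0.30). Both day 6 libraries lay below both day 3 libraries in 9 and above them in 3. Over all tested genes these shares were 14.9% and 17.0%. The list's median was −0.69 within replicate 1 and 0.23 within replicate 2. The Bmp antagonist Grem1 measured 1079 and 925 CPM and then 597 and 586 CPM (−0.76, SE 0.188, DESeq2 adjusted p = 0.0139), and fibronectin Fn1 16490 and 9836 CPM and then 8134 and 5922 CPM (−0.91, SE 0.368). The myostatin antagonist Fst measured 97.5 and 74.1 CPM and then 130 and 266 CPM (1.21, SE 0.390).

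The Yap-Tead target list had 10 of 22 members higher and 12 lower (median −0.14), and its median was −0.33 within replicate 1 and 0.38 within replicate 2. Ctgf measured 257 and 28.2 CPM at day 3 and 109 and 146 CPM at day 6, and Cyr61 780 and 116 CPM and then 219 and 219 CPM. The replicates of day 3 differed several fold in both genes, so no late difference was detectable. The Notch list was higher for 12 of 19 (median 0.24), the Wnt list for 17 of 33 (0.06), the Tgfb list for 21 of 34 (0.08) and the matrix list for 19 of 35 (0.06). For each of these 4 lists the median was below 0 within replicate 1 and above 0 within replicate 2. In the Notch list the target gene Heyl measured 36.2 and 12.1 CPM and then 55.7 and 63.3 CPM (1.30, SE 0.496). At an unadjusted p under 0.05 by edgeR, 2 members were higher and 3 lower, against 4.30% and 3.43% of all tested genes. Rbpj measured 101 and 220 CPM and then 90.6 and 75.3 CPM (−0.95, SE 0.294). For Jag1 the values were 15.66 and 41.65 CPM and then 14.94 and 13.41 CPM (−1.02, SE 0.427). The target Hey1 was higher (0.75, SE 0.286), and the target Hey2, under 1 CPM in these libraries, was lower (−3.00, SE 0.832). The satellite and reserve cell list had a median of 0.04, with Pax7 at 68.5 and 24.1 CPM and then 57.8 and 37.7 CPM. The growth factor, cell cycle inhibitor, atrophy, cholesterol and adipogenic lists had medians between −0.18 and 0.07.

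Genes that control cells induced between day 0 and day 3 offer a list whose fold changes use none of the 4 silenced libraries. edgeR called 2450 such genes. The low-count filter, the scaling and the spread behind these calls came from the fit of all C2C12 groups, which includes the silenced libraries. The list is therefore not fully independent of the late change. In silenced cells 1814 of the 2450 genes were higher at day 6 than at day 3, with a median log2 fold change of 0.27. Both day 6 libraries lay above both day 3 libraries for 832 (34.0%, against 17.0% of all tested genes), and below them for 135 (5.51%, against 14.9%). The medians within replicate 1 and replicate 2 were 0.24 and 0.34. In siControl cells the same genes had a median of 0.08 between day 3 and day 6, but the list was chosen on the same siControl day 3 libraries, so this value is not independent of the choice and is not a comparison. Of the 52 genes that DESeq2 called higher late in silenced cells, 48 were among these 2450, which make up 16.01% of all tested genes. The 1940 genes that control cells repressed had a median of 0.03, with 1018 higher. It was −0.11 within replicate 1 and 0.13 within replicate 2.

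The difference between the late change of silenced and control cells was tested as an interaction in the same fit. No gene was called (0% of 15303), the smallest adjusted p was 0.491, and 314 genes had an unadjusted p under 0.05. DESeq2 called 8. In the test on simulated counts, edgeR recovered 30 of 100 differences of 2 on the log2 scale. The 2 contrasts use different libraries. Itgb1bp3 had a log2 difference of 2.48 (adjusted p = 0.491), as it was higher late in silenced cells and was at 13.2 and 11.9 CPM and then 8.56 and 10.8 CPM in control cells. For Itgb1bp2 the difference was 1.44 (adjusted p = 0.955), for Tcap 1.85 and for Myh1 1.06 (adjusted p = 1 for both). It was −0.07 for Myh4.

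Silenced cells of day 6 were then set against control cells of day 3, the comparison that asks how far late silenced cells resembled early control cells. edgeR called 8 genes higher (0.0523%) and 23 lower (0.150%). With either silenced library left out these counts were 0 higher and 0 or 2 lower. The lower genes included slow and cardiac muscle genes. Myl2, the slow and ventricular regulatory light chain, was at 0.118 and 0.640 CPM in silenced cells of day 6 against 18.4 and 16.7 CPM (log2 fold change −5.46, adjusted p = 0.0263). Myh6 was at 8.11 and 8.14 CPM against 69.6 and 90.4 CPM (adjusted p = 0.0122). Myh7 was at 44.1 and 45.7 CPM against 339 and 527 CPM (−3.27, adjusted p = 0.0365), and Ankrd2 had a log2 fold change of −2.61 (adjusted p = 0.0365). The thick filament list thus had 3 members called lower, and 18 of its 24 members were lower in value, with a median of −0.37. The thin filament list had a median of −0.35 with none called, and the Z-disc list −0.31 with only Ankrd2 called.

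Among called genes with a mean of at least 1 CPM in these 4 libraries, the others with the largest lower values were the matrix-associated factor Nov (0.533 and 0.0914 CPM against 17.4 and 10.5 CPM), Fxyd6, a regulator of the sodium pump (1.33 and 2.83 CPM against 29.7 and 35.7 CPM), Adamts15 (0.178 and 0.0229 CPM against 3.78 and 2.58 CPM) and Colec10 (0.118 and 0.0229 CPM against 2.22 and 2.00 CPM). The higher genes were led by Mtus2 (3.64 and 10.6 CPM against 0.313 and 0.313 CPM, log2 fold change 4.49), Serpinb6c (13.5 and 7.52 CPM against 0.650 and 1.08 CPM), Lingo1, a neuronal receptor component (8.58 and 10.4 CPM against 0.939 and 1.15 CPM, 3.18), Col19a1 (2.55 and 2.95 CPM against 0.481 and 0.417 CPM) and the integrin Itga4 (96.4 and 101 CPM against 12.4 and 20.5 CPM, 2.58). At day 3 the silenced cells had held 0.0808 and 0.230 CPM of Myl2 and 65.5 and 53.7 CPM of Itga4, on the same side of control as at day 6.

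PMs carrying the same siRNAs gave a second setting for the late change. In a fit of all 24 libraries, the late log2 fold change of silenced C2C12 cells differed from that of silenced PMs for 59 of 16926 genes (0.349%), 31 with the larger value in C2C12 cells and 28 with the smaller. DESeq2 called 386 genes, and edgeR 10 without day 6 replicate 2 of C2C12 cells, 544 without day 3 replicate 1 and 401 without day 6 replicate 1. Cell type, mouse strain and culture cannot be told apart here. The clearest was Itgb1bp2, with 409 and 391 CPM at day 3 and 299 and 343 CPM at day 6 in PMs, a difference of 1.94 (SE 0.202, adjusted p = 0.000622 by edgeR). Myo18b measured 549 and 391 CPM and then 387 and 296 CPM in PMs, a difference of 2.40 (SE 0.434, adjusted p = 0.0313). For Itgb1bp3 the difference was 2.58 and for Camk2b 1.83 (adjusted p = 0.0388 for both). Of the 15 leading genes higher at day 6 these 4 were called, and of the 15 leading lower genes Ero1l, Vegfa, Dusp4 and Slc25a37 were. Dusp4 for instance measured 30.5 and 22.97 CPM at day 3 and 47.9 and 41.5 CPM at day 6 in PMs, a difference of −2.06 (adjusted p = 0.0169). These leading genes were picked on the C2C12 contrast that enters the difference, so the test is not independent of that choice.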

How the data were processed

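RNA was sequenced from siTead1/4 and siControl C2C12 cells and PMs at days 0, 3 and 6, with 2 libraries per group. The libraries were polyadenylated and without strand information, and reads of overlapping genes cannot be assigned by strand. The authors deposited a table of raw counts per gene, with reads mapped to mm9. The submitters' processing notes name CASAVA 1.8.2, TopHat2 2.0.10, Bowtie2 2.1.0, HTSeq 0.6.1 and DESeq2 1.8.1, and the counting mode and the annotation release are not given in the sources used here. The table also has 36 columns for 12 libraries without a sample entry, which were left out, as were the normalized columns. The gene lengths that were used also come from the deposited table.

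The tests used edgeR 4.0.16 in R 4.3.3 (filterByExpr, TMM, glmQLFit and glmQLFTest, 1 mean for each of the 6 C2C12 groups, 12 libraries), with DESeq2 1.42.0 as an alternative. P-values were adjusted by Benjamini-Hochberg over all tested genes, and a call needed an adjusted p under 0.05 together with a log2 fold change beyond 1 in either direction. The SE of a fold change was taken from the quasi-likelihood F statistic. CPM are counts scaled by the TMM-adjusted library size. Log2 values within a replicate number used a prior count of 2. Values of PMs come from a fit of 24 libraries with 12 group means. The fits were tested on simulated data with 200 changed genes.

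Genes named are the 15 leading genes in each direction (by fold change among called genes, filled up with the smallest p among genes with a fold change over 1 on the log2 scale, a mean of at least 1 CPM and no overlap between the days), a fixed list of Tead and muscle genes, the 3 largest differences in each direction per gene list, and the 5 largest called ones in each direction for the other comparisons among genes with a mean of at least 1 CPM in the libraries compared. A few others serve as examples of a list, and 1 leading gene is not reported here. The comparison and the 30 gene lists were chosen with earlier results of these data known. Alternatives were another tool, size factors, no filter on low counts, other sets of libraries, a replicate block and leaving out each siTead1/4 library. The promoters are RefSeq sequences of GRCm38.p6 and were matched by gene symbol. The table has no entry for Itgb1bp2, Tcap or Myo18b.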

Additional observations from a re-analysis of the deposited data

Results flagged for a closer look

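The late change differed between silenced C2C12 cells and silenced PMs for 59 genes by the interaction test of edgeR, and no explanation was tested. Among those with a larger value in C2C12 cells, the difference in log2 fold change was 4.11 for Cacna1h, 3.72 for Gja4, 3.32 for Sema6b, 3.05 for Peg10 and 3.04 for Cited1. In Cacna1h, a calcium channel, PMs went from 94.2 and 74.2 CPM at day 3 to 38.0 and 18.1 CPM at day 6, while C2C12 cells were at 0.0529 and 0.162 CPM and then 0.634 and 0.665 CPM. Cacna1h, Gja4 and Cited1 were under 1 CPM in every silenced C2C12 library, so their fitted differences depend on few C2C12 reads. Among those with a smaller value in C2C12 cells, it was −5.19 for Ptgs2, −4.69 for Anxa8, −4.14 for Cd53, −3.46 for Meox1 and −3.25 for Tmem154. Ptgs2, the inducible cyclooxygenase, measured 93.3 and 322 CPM and then 20.8 and 49.3 CPM in C2C12 cells, and 24.0 and 11.3 CPM and then 146 and 72.7 CPM in PMs.

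Of the genes that led the late change in C2C12 cells, the difference was 2.58 for Itgb1bp3, 2.40 for Myo18b, 1.94 for Itgb1bp2 and 1.83 for Camk2b, and −2.41 for Ero1l, −2.06 for Dusp4, −1.5 for Vegfa and −1.18 for Slc25a37. The difference from siControl C2C12 cells was called for 0 genes by edgeR, with 314 at an unadjusted p under 0.05, and for 8 by DESeq2.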

How the results depend on the processing

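The late change was called for 0 genes in each direction by edgeR. DESeq2 called 52 higher and 42 lower, edgeR with no filter on low counts 389 and 241, and edgeR with all 24 libraries in the fit 25 and 10. DESeq2's size factors, the 4 libraries alone and a call at any fold change left both counts at 0. Leaving out 1 silenced library gave 0 to 28 higher and 0 to 192 lower, with 28 and 192 without day 3 replicate 1. The difference from siControl went from 0 to 8 with DESeq2, to 158 with no filter, and over 0 to 43 with a library left out, 43 again without day 3 replicate 1. For silenced cells of day 6 against control cells of day 3, the 8 higher and 23 lower became 52 and 131 with DESeq2, 266 and 250 with no filter, and 0 and 0 to 2 with a library left out. The difference from PMs, whose alternatives were chosen after seeing the data, went from 59 to 386 with DESeq2, to 911 with no filter, and over 10 to 544 with a library left out, 10 without day 6 replicate 2. The cause was not tested.

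Replicate numbers did not pair the libraries by the labels, and the correlation of replicate deviations between day 3 and day 6 of silenced cells was 0.231. With the replicate block the late change and its difference from siControl stayed at 0 calls, the comparison with control cells of day 3 had 13 higher and 30 lower, and the difference from PMs had 86. Of 79 genes whose late fold change was recomputed, Tead4 ran from −0.067 without day 3 replicate 1 to 0.90 without day 3 replicate 2. Ndc80 ran from −0.11 without day 6 replicate 2 to 2.54 without day 6 replicate 1, and Mki67 from −0.32 to 2.37. List medians moved by more than the replicate spread in 45 cases and kept within it in 255. That spread was the SD of the 2 medians within replicate numbers, so lists with unlike replicates had the widest allowance. The counts are therefore not a measure of how robust the medians are. The mitosis median was −0.33 without day 6 replicate 2, against 1.43 with it, and still counts as kept. Genes near the filter, such as Ifit1 and Ccl11, rest on few reads.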
